A study of Gallus gallus with 12 samples.

Results

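The genes described here were present in red blood cells of the chicken embryo, missing from the table of adult red blood cells, and at least as high in fibroblasts as in the embryonic cells. They were chosen by 3 measured values: a mean of at least 1 in embryonic red blood cells, no entry in the adult table, and a fibroblast mean at or above the embryonic mean. Of 13889 genes in any table, 371 reached 1 in embryonic red blood cells. Of these, 145 had no adult entry, and 139 of those were listed in fibroblasts. The last condition left 128 genes, called members here. Dropped along the way were 6 genes without a fibroblast entry and 11 with a fibroblast mean below the embryonic mean. RNA was sequenced in 4 chicken cell types of wild-type (WT) genotype, with 3 replicates of each. Embryonic red blood cells (eRBC) were primary cells of embryos at embryonic day 10, and adult red blood cells (aRBC) were primary cells of hens aged 28 to 38 weeks. HD3 erythroblasts are 1 established line, transformed by avian erythroblastosis virus, and stand for an earlier stage of the red blood cell lineage. Primary fibroblasts, cultured in the same serum-supplemented medium as HD3, stand for a cell type outside it.

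Red blood cells of birds keep a nucleus throughout life, unlike those of mammals. As they mature, the chromatin condenses, transcription declines and the RNA content of the cell falls, while globin transcripts come to make up much of what remains. Transcripts that many cell types share, such as those of general metabolism and protein synthesis, are thereby diluted or lost. Which processes the members belong to could not be read from these data. The tables give Ensembl chicken IDs without names, and the gene table used here carries an Ensembl ID for 0 of its 25635 genes. For the same reason the cell types could not be checked against their markers, and the members are described by level, length and ID.

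Values are read numbers corrected for gene length and sequencing depth (FPKM) that the authors scaled to cell number, per the names of their tables, and are called scaled FPKM below. Their factor is not stated in the sources used here, and no listed mean is below 0.3. A missing entry is therefore a level below 0.3 on this scale and not a measurement of 0. Less RNA per cell and less of a given transcript cannot be told apart in a level on this scale. Recovered reads on listed genes ran from 6454390 to 17808106 in the embryonic libraries, from 9051843 to 19379161 in HD3 and from 8853446 to 23384823 in fibroblasts. On these reads, a scaled FPKM of 1 equals no more than 90.3 unscaled FPKM in embryonic cells and no more than 5.84 in HD3. These limits hold if replicates of a cell type share a factor. In fibroblasts it equals 1, because their factor was taken as 1 and not recovered. In each of these cell types 1 library stood apart, and its values are given with the results they touch: embryonic replicate 1, HD3 replicate 1 and fibroblast replicate 2. Embryonic replicate 1 (6454390) and HD3 replicate 1 (9051843) had the fewest reads on listed genes in their groups. Fibroblast replicate 2 (23384823) had the most in its group. Whether depth bears on their values was not tested. The labels do not say whether replicates came from separate birds or cultures, so p-values measure the spread between these samples, which may be technical.

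The embryonic levels, which chose the members, were mostly low beside those of HD3 and fibroblasts, and close together. The mean scaled FPKM ran from 1.00 to 7.86 with a median of 1.38. It was under 1.5 for 74 members, at least 2 for 30 and at least 5 for 8. Among all genes listed in embryonic cells the median member stood at percentile 81.4, a rank that the minimum of 1 helped to set. The 371 genes that reached that minimum, members included, stood at a median percentile of 86.3. The highest member had 6.03, 7.79 and 9.75 in embryonic replicates 1 to 3, against 15.2, 27.0 and 25.7 in HD3 and 171, 314 and 189 in fibroblasts. Its 3 cell types formed a stair without overlap. The lowest member had 0.920, 0.939 and 1.14 in embryonic cells, against 1.56, 1.16 and 1.08 in HD3 and 38.5, 24.3 and 40.9 in fibroblasts. There the embryonic and HD3 values overlapped and only the fibroblasts lay apart. In 73 of the 128 members every embryonic replicate was at least 1, and in the others 1 or more fell below it. The median member was covered by 1370.5 to 5908 reads per embryonic library, and no member by fewer than 63.

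The thresholds cut through a continuous range. The 3 members just inside the embryonic minimum had means of 1.00, 1.01 and 1.01, and the 3 genes just outside had 0.994, 0.994 and 0.963. Their SDs over replicates, 0.0840 to 0.356, were larger than the gaps between them. By the ratio of the fibroblast to the embryonic mean, the nearest members stood at 1.15, 1.37 and 1.68, and the nearest genes left out at 0.767, 0.628 and 0.620. For most members this ratio was far from 1, with a median of 30.7 and a maximum of 1193. On the adult side, the 3 genes that met the other conditions but were barely listed in adult cells had adult means of 0.304, 0.305 and 0.307.

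Absence from the adult table set an upper limit of 0.3 on the adult level of each member. The embryonic mean exceeded that limit by at least 3.33-fold for the lowest member, 4.60-fold for the median member and 26.2-fold for the highest. The whole signal was also lower in adult cells, where the sum over listed genes was 0.177 times that of embryonic cells. A gene holding the same share of the sum in both kinds of red blood cells would need an embryonic mean of at least 1.70 to reach 0.3 in adult cells. Of the 128 members, 85 lay under 1.70 and 43 at or above it. With the sum of a single adult library in place of the mean, 66 to 103 members lay under the corresponding level. For the 85 members, absence from the adult table therefore places no limit below an equal share of the sum. The split at 1.70 rests on an embryonic sum in which few genes weigh heavily. Without the 10 highest genes of each library, the members' share of the embryonic sum rose from 1.63% to 12.9%. Among the 206 genes that met the other conditions but were listed in adult cells, the median ratio of adult to embryonic mean was 0.369, above the 0.177 of the sums. Their adult listing itself favours a high ratio. The cutoff of 0.3 equals no more than 118 unscaled FPKM in adult cells, or 24.7 by an estimate that sets every unlisted gene at the cutoff.

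**Figure D1:**
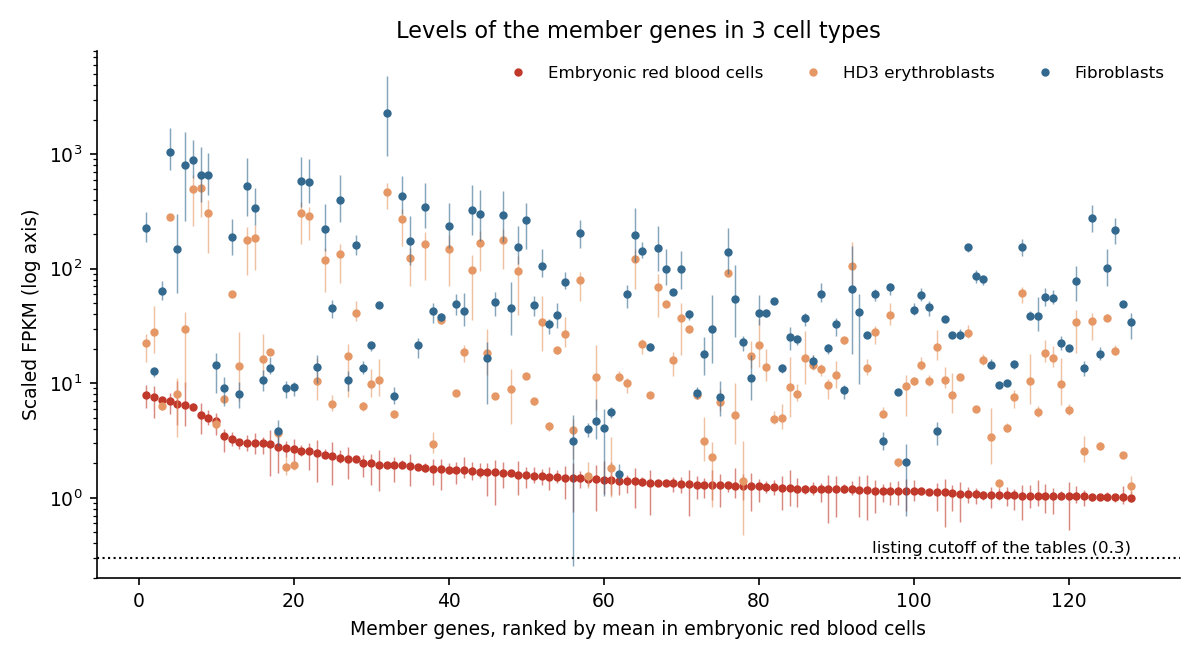
Mean scaled FPKM (log axis) of the 128 members, ranked from left to right by their mean in embryonic red blood cells; points are means of 3 replicates and vertical lines run from the lowest to the highest replicate. Embryonic means fall smoothly to 1.00 above the cutoff of 0.3 (dotted), while HD3 means spread from 1.27 to 509 and fibroblast means from 1.62 to 2304.

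The rule used no value from HD3 erythroblasts, so it did not directly set the members' HD3 levels. Comparisons of HD3 with embryonic cells or fibroblasts still involve values that the rule used. Of the 128, 125 were listed in HD3 (97.7%), and the same was true of 97.3% of all genes listed in embryonic cells. All 125 had an HD3 mean of at least 1, with a median of 13.9 and a range of 1.27 to 509. The mean was under 2 for 7 members, from 2 to under 10 for 41, from 10 to under 100 for 58 and at least 100 for 19. Among all genes of the HD3 table the median member stood at percentile 92.2, and among the fibroblast genes at percentile 88.4. Genes listed in embryonic cells stood at a median percentile of 86.4 in HD3 and 84.5 in fibroblasts, so high rank in both was common to that table. The 371 genes with an embryonic mean of at least 1, members included, stood at 95.8 in HD3 and 93.5 in fibroblasts. Against that set, which shares the embryonic minimum, the members ranked lower in both.

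The 3 members without an HD3 entry were listed in fibroblasts at means of 21.8, 4.05 and 41.9. The first had 1.86, 1.98 and 1.74 in embryonic cells against 24.9, 16.8 and 23.6 in fibroblasts. The second had 1.09, 1.10 and 2.11 in embryonic cells, against 5.91, 1.04 and 5.21 in fibroblasts, and its groups overlapped through fibroblast replicate 2. The third had 0.682, 1.54 and 1.27 in embryonic cells against 55.6, 9.86 and 60.1 in fibroblasts. In all 3, fibroblast replicate 2 was the lowest fibroblast library.

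By means, 106 of the 125 members listed in HD3 formed a stair, lowest in embryonic red blood cells, higher in HD3 and highest in fibroblasts (84.8%). Of the 1256 genes tested in both comparisons described below, 90.9% formed the same stair. Among the 205 of these that met the members' embryonic and fibroblast conditions but were listed in adult cells, 95.6% did. The rule itself set every fibroblast mean at or above the embryonic one, so the data could only place HD3 between them or outside. The HD3 mean exceeded the fibroblast mean in 15 members, and the embryonic mean exceeded the HD3 mean in 4. The stair held without any overlap of replicates in 78 members (62.4%). That share was smaller than the 80.4% of the 1256 genes and the 74.6% of the 205. Ratios of means had a median of 9.48 for HD3 over embryonic cells and of 2.71 for fibroblasts over HD3.

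The 9 libraries held the members at different widths. The median scaled FPKM over members was 1.19, 1.55 and 1.48 in embryonic replicates 1 to 3, 16.6, 12.2 and 11.6 in HD3, and 41.2, 43.2 and 39.3 in fibroblasts. Medians of one cell type thus lay far closer to each other than to those of the next. Embryonic replicate 1 was the lowest of its group in 95 of 128 members (74.2%), much as over all 1354 genes listed there (73.3%). Pearson's r of log2(FPKM + 1) between embryonic replicates was 0.790 and 0.817 for the pairs with replicate 1, against 0.965 for replicates 2 and 3. These r values are across 128 genes of a narrow range within the same libraries, carry no test, and describe only the libraries. The coefficient of variation over replicates had a median of 22.4% in embryonic cells, 25.6% in HD3 and 21.1% in fibroblasts. The corresponding medians over all listed genes were 23.3%, 25.1% and 24.0%.

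**Figure D2:**
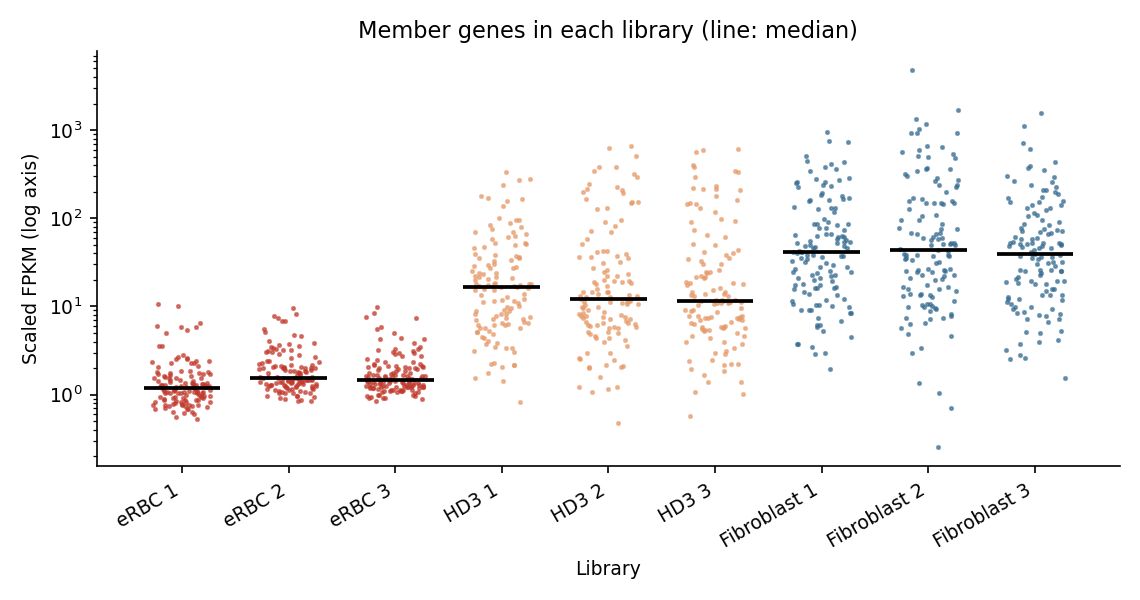
Scaled FPKM (log axis) of the members in each of the 9 libraries, 1 point per gene, with the median as a black line; 128 genes are shown in eRBC and fibroblasts and 125 in HD3. Medians are 1.19 to 1.55 in eRBC, 11.6 to 16.6 in HD3 and 39.3 to 43.2 in fibroblasts.

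The comparison of embryonic red blood cells with HD3 asked how far the members stood below an earlier stage of the lineage. Most were lower in embryonic cells on the per-cell scale. Of 125 members tested with limma on log2(FPKM + 1), 104 were lower in embryonic cells and 0 higher, called where the Benjamini-Hochberg adjusted p was under 0.05 and the log2 fold change was 1 or more in size. Over all 1268 genes tested, 93.4% were called lower and 0.946% higher. The members' 104 of 125 (83.2%) was thus no excess over the background. Of the 357 genes tested with an embryonic mean of at least 1, members included, 84.9% were called lower and 3.36% higher. The median log2 fold change of the members was -2.42, with a range of -7.28 to 0.39. It was -2.81 over the 357 genes and -2.66 over all genes tested. The embryonic minimum of 1 entered the rule, which keeps out genes that are lowest in embryonic cells. The fibroblast condition keeps out genes higher in embryonic cells than in fibroblasts, so the 0 called higher is not independent of the rule. Of the 205 tested genes that met the same embryonic and fibroblast conditions but were listed in adult cells, 2 were called higher (0.976%). Replicates did not overlap in 114 members, all with embryonic cells below HD3, where 96.5% of all genes tested did the same.

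The direction depended on the scale. Centring every sample on its median gene moved the median of all genes tested from -2.66 to 0.06, and 35 members were higher and 36 lower in embryonic cells, against a background of 19.3% in each direction. With equal sums over the genes tested 15 members were higher and 51 lower, beside 3.71% and 55.7% of all genes. On recovered reads per library (limma voom), 55 were higher and 29 lower, beside 21.8% and 23.6%. The embryonic minimum of 1 is part of the rule, and 357 genes tested reach it, members included. Of those 357, 39.2% were higher and 22.7% lower on recovered reads, beside 44% and 23.2% of the members. Centred, the 357 gave 23.5% and 30.3%, beside 28% and 28.8%. With equal sums they gave 12.6% and 45.1%, beside 12% and 40.8%. Members thus stood close to all genes that reach the minimum, but 125 of the 357 are members, which builds in part of that closeness. On recovered reads and when centred, members were called higher more often than the 357. The lists behind the reads differ in length, 1354 genes in embryonic cells and 10303 in HD3, which raises each share in the shorter list by construction. Relative to other transcripts of the same cells, then, members lay on both sides of their HD3 level.

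**Figure D3:**
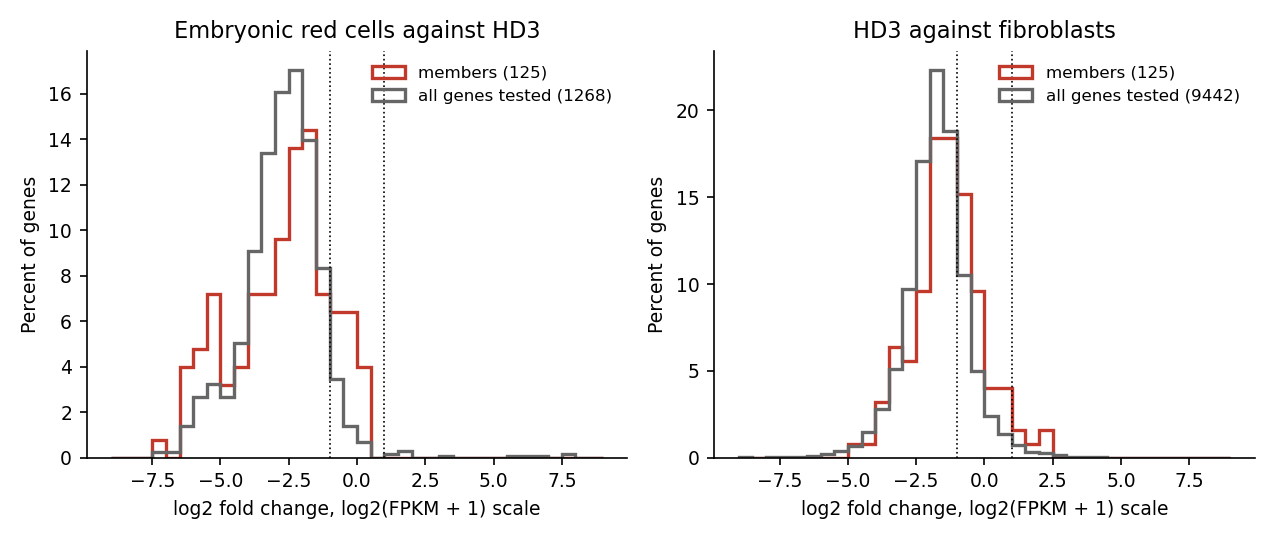
Distribution of log2 fold changes on the log2(FPKM + 1) scale as percent of genes in bins of 0.5, for members (red) and all genes tested (grey); left, embryonic red blood cells against HD3; right, HD3 against fibroblasts. Dotted lines mark -1 and 1. Member medians are -2.42 and -1.33, beside -2.66 and -1.73 for all genes tested.

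The largest falls belonged to members that were abundant in HD3. Embryonic means of the members spanned only 1.00 to 7.86, so the size of a fall largely restates the HD3 level. ENSGALG00000047347, with a recovered length of 299 bp, had a scaled FPKM of 2.03, 1.91 and 1.85 in embryonic replicates 1 to 3, against 331, 511 and 560 in HD3 erythroblasts. No embryonic value came near an HD3 value. Its log2 fold change was -7.28 (standard error, SE, 0.29), at a limma adjusted p of 4.14e-07. In fibroblasts ENSGALG00000047347 had 958, 4844 and 1111, with replicate 2 far above the others.

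ENSGALG00000000474, of 438 bp, had 1.81, 1.83 and 2.12 in embryonic cells, against 157, 321 and 333 in HD3 erythroblasts and 341, 645 and 301 in fibroblasts. HD3 and fibroblast values overlapped, and only the embryonic ones stood apart. The log2 fold change of ENSGALG00000000474 between embryonic cells and HD3 was -6.46 (SE 0.34), at a limma adjusted p of 8.15e-07. Both genes were called lower under each of the 13 alternatives, those that rescale the samples included, where the change was smallest at -3.86 for ENSGALG00000047347 and -3.03 for ENSGALG00000000474 on recovered reads.

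At the other end, 21 members were not called, and 7 of all 125 had an HD3 mean under 2. The member with the most positive difference had 2.28, 3.11 and 2.77 in embryonic cells against 2.30, 1.58 and 1.67 in HD3. Its log2 fold change of 0.39 (SE 0.15) came at a limma adjusted p of 0.0371, short of the minimum change, and embryonic replicate 1 lay below HD3 replicate 1. The third member by embryonic level had 6.51, 7.44 and 7.50 in embryonic cells against 6.70, 6.31 and 5.81 in HD3, for a log2 difference of 0.16 (SE 0.16). In both members the embryonic and HD3 replicates overlapped. The third member had 61.9, 77.7 and 53.2 in fibroblasts, well above both.

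The comparison of HD3 erythroblasts with fibroblasts asked how the members differed between a cell of the lineage and one outside it. Of the 125 members tested with limma, 77 were lower in HD3 and 4 higher. Over all 9442 genes tested, 78.5% were lower and 1.55% higher. The 350 genes tested with an embryonic mean of at least 1 stood closer to the members, in part because they include all 125. Of them, 63.7% were lower and 4.57% higher, beside 61.6% and 3.2% of the members. The members' median log2 fold change was -1.33, beside -1.73 over all genes tested. HD3 replicates lay wholly below fibroblast replicates in 89 members and wholly above in 7, where 87.3% and 2.57% of all genes tested did. The fibroblast mean had entered the rule through its comparison with the embryonic mean. Of the 104 members called lower in embryonic cells than in HD3, 60 were also lower in HD3 than in fibroblasts, 4 were higher in HD3 and the rest were not called there. The 60 and the 4 made up 48.0% and 3.20% of the 125 members, beside 70.5% and 3.34% of the 1256 genes tested in both comparisons. Of the 21 members not called between embryonic cells and HD3, 17 were lower in HD3 than in fibroblasts (13.6% of the members, beside 4.14%), and 4 were called in neither comparison (3.20%, beside 1.35%). The 1256 genes include genes with embryonic means under 1, whereas the rule's minimum limits how far a member can lie below HD3. A nearer set is the 205 genes tested in both that met the same embryonic and fibroblast conditions but were listed in adult cells. There the classes of the 60, the 4, the 17 and the last 4 held 62.0%, 0%, 6.34% and 1.46%. HD3 values enter both comparisons, and the differences from these backgrounds were not tested.

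This direction too turned with the scale. Centred on the median gene, 27 members were higher in HD3 and 13 lower, beside 16.3% and 12.9% of all genes tested. With equal sums 34 were higher and 12 lower, beside 11.2% and 16.2%. On recovered reads 62 were higher and 6 lower, beside 24.4% and 12.4%. Of the 350 genes tested with an embryonic mean of at least 1, members included, 42.3% were higher and 4% lower on recovered reads. The members' shares were 49.6% and 4.8%. With equal sums the 350 gave 23.7% and 7.71%, beside 27.2% and 9.6% of the members. Centred, they gave 18% and 8.29%, beside 21.6% and 10.4%. The median over all genes tested moved from -1.73 to 0.14 with centring and to -0.12 with equal sums. The members' median, -1.33 on the deposited scale, was 0.54 and 0.50 under the same scalings. Relative to other transcripts, more members were therefore higher than lower in HD3 under all 3 rescalings, the reverse of the deposited scale. The same held for all genes tested that reach the embryonic minimum of 1.

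The 4 members called higher in HD3 than in fibroblasts had low fibroblast levels, with means of 1.62 to 8.70. ENSGALG00000050058, of 3261 bp, had 12.7, 10.4 and 10.5 in HD3 erythroblasts, against 1.96, 1.37 and 1.53 in fibroblasts. Its embryonic values of 1.05, 1.66 and 1.53 overlapped the fibroblast ones, which placed it nearest to the ratio of 1 in the rule. The log2 fold change of ENSGALG00000050058 between HD3 and fibroblasts was 2.22 (SE 0.17), at a limma adjusted p of 1.63e-05.

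ENSGALG00000012378, of 1848 bp, had 29.3, 17.0 and 16.1 in HD3 erythroblasts, against 2.86, 4.62 and 3.96 in fibroblasts, and 0.764, 1.34 and 1.24 in embryonic red blood cells. All HD3 values lay above all others. Its log2 fold change between HD3 and fibroblasts was 2.14 (SE 0.27), at a limma adjusted p of 0.000155. Both genes were called higher in HD3 under each of the 13 alternatives.

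ENSGALG00000017804 and ENSGALG00000040371 stood at the other end. ENSGALG00000017804 had 9.13, 42.0 and 38.5 in HD3 erythroblasts, against 261, 594 and 1555 in fibroblasts, and 10.2, 5.07 and 4.26 in embryonic red blood cells. Replicates of this gene lay far apart within each cell type, HD3 replicate 1 had only 54 of its reads, and its recovered length was 112 bp. The log2 fold change of ENSGALG00000017804 between HD3 and fibroblasts was -4.59 (SE 0.77), at a limma adjusted p of 0.000724. On recovered reads it was -2.08 and no longer passed, with a limma adjusted p of 0.0576.

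ENSGALG00000040371, of 1920 bp, had 11.20, 11.66 and 11.96 in HD3 erythroblasts, against 378, 147 and 267 in fibroblasts, and 1.22, 1.86 and 1.63 in embryonic red blood cells. Its 3 cell types formed a stair without overlap. The log2 fold change of ENSGALG00000040371 between HD3 and fibroblasts was -4.29 (SE 0.35), at a limma adjusted p of 2.00e-05, and it was called lower under each of the 13 alternatives.

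**Figure D4:**
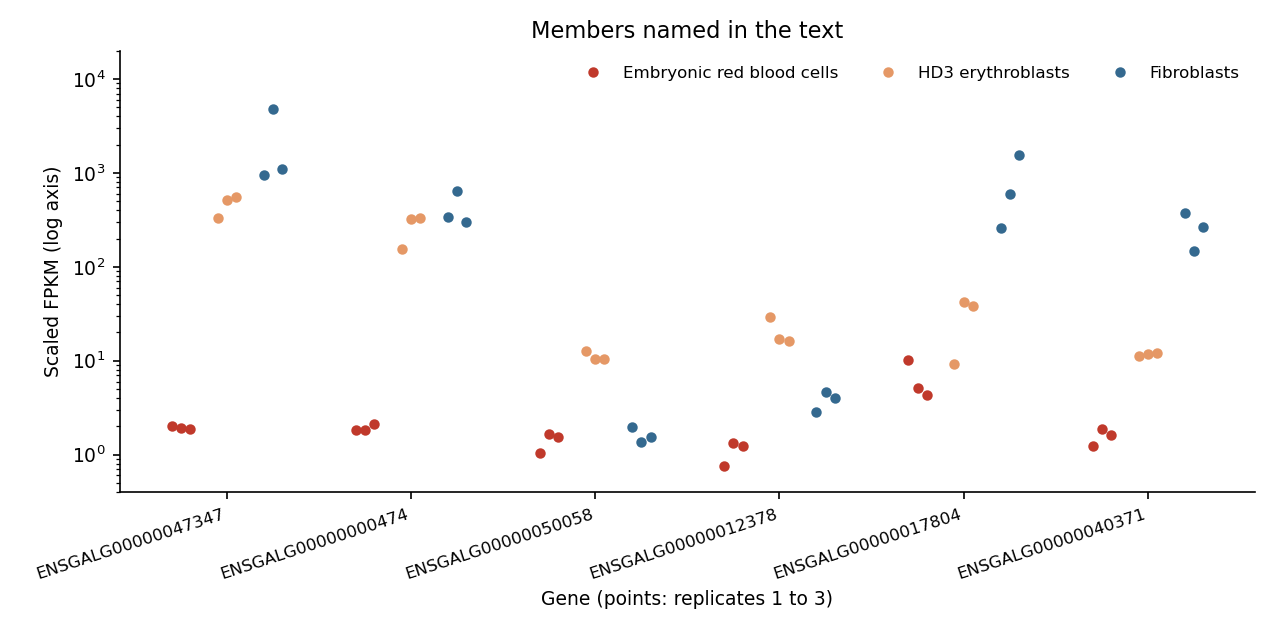
Scaled FPKM (log axis) of the 6 named members in embryonic red blood cells, HD3 erythroblasts and fibroblasts, with replicates 1 to 3 from left to right in each cluster of points. Embryonic values of all 6 lie between 0.764 and 10.2. The first pair spans the widest gap from embryonic cells to HD3, and the middle pair peaks in HD3. By mean, the first and the last pair are both highest in fibroblasts.

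Within the 125 members, 19 had an HD3 mean of at least 100. Their median scaled FPKM was 2.03, 2.39 and 2.12 in embryonic replicates 1 to 3, against 100.2, 224 and 219 in HD3 and 286, 645 and 258 in fibroblasts. All 19 were called lower in embryonic cells than in HD3, and 4 were called lower in HD3 than in fibroblasts. Fibroblast replicate 2 was the highest fibroblast library in all 19, and HD3 replicate 1 the lowest HD3 library in 18. The same held for most other genes at that level: of the 83 genes with an HD3 mean of at least 100 that were tested in both comparisons and are not members, fibroblast replicate 2 was highest in 71 (85.5%) and HD3 replicate 1 lowest in 70 (84.3%). All 83 were likewise called lower in embryonic cells than in HD3, and 38 were called lower in HD3 than in fibroblasts. Over the 58 members with HD3 means from 10 to under 100, fibroblast replicate 2 was highest in 39. HD3 replicate 1 was lowest in 26 of the 58 and highest in 31, so its side turned with the level. Over all genes listed in HD3 it was lowest in 35.4% and highest in 59.2%. Fibroblast replicate 2 was highest in 44.9% of all genes listed in fibroblasts. All 58 were called lower in embryonic cells, as were 93.4% of all genes tested. Whether those 2 libraries set the level of the abundant members was not tested. Of the 7 members with HD3 means under 2, 0 were called lower in embryonic cells than in HD3, and 6 were called lower in HD3 than in fibroblasts. That 0 was fixed in advance, since an embryonic mean of at least 1 leaves no room for a fall of the minimum size. Likewise, no member had an embryonic mean above 7.86, so an HD3 mean of at least 100 by itself set a large fall for all 19. These groups were cut by HD3 level after the values were seen, and that level enters both comparisons.

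As a share of the sum of scaled FPKM over listed genes, the members held 1.63% ± 0.427 in embryonic red blood cells, 5.33% ± 0.422 in HD3 and 3.18% ± 1.07 in fibroblasts (SD, n = 3 each). The cell-number factor cancels within such a share, but it still decides, through the cutoff of 0.3, which genes are listed and summed. The libraries gave 1.15%, 1.94% and 1.81% in embryonic cells, 4.85%, 5.65% and 5.48% in HD3, and 2.59%, 4.42% and 2.53% in fibroblasts. Embryonic libraries lay below the rest, and HD3 above fibroblasts, without overlap. Of the reads on listed genes, the members took 4.56% ± 1.10 in embryonic cells, 5.51% ± 0.991 in HD3 and 2.28% ± 0.771 in fibroblasts (SD, n = 3 each). By reads the embryonic and HD3 libraries overlapped, and both lay above fibroblasts. The order of the shares turned when the 10 highest genes of every sample were removed, to 12.9% ± 0.969 in embryonic cells, 8.32% ± 1.70 in HD3 and 4.19% ± 0.845 in fibroblasts (SD, n = 3 each). The libraries then gave 11.8%, 13.6% and 13.3% in embryonic cells, 6.42%, 8.86% and 9.69% in HD3, and 3.64%, 5.17% and 3.77% in fibroblasts, with embryonic libraries highest and no overlap. The genes removed included 1 member in HD3 replicate 2 and 1 in fibroblast replicate 2, but 0 in each embryonic library. Shares of those 2 libraries thus leave out a member. Members were chosen by their embryonic level and the lists differ in length, so these shares carry no test.

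**Figure D5:**
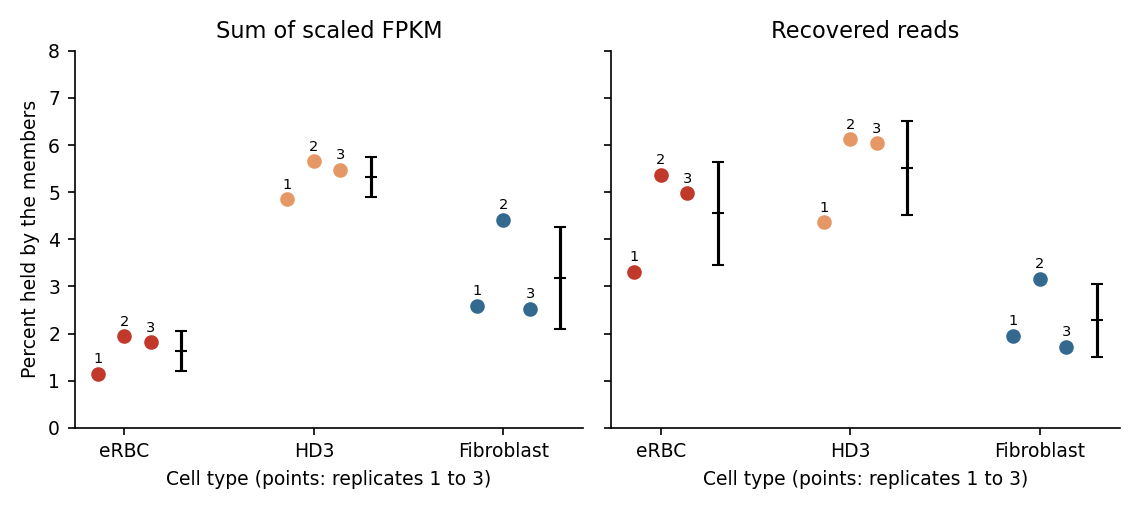
Percent of each library held by the 128 members, by the sum of scaled FPKM over listed genes (left) and by recovered reads on listed genes (right), for eRBC, HD3 and fibroblasts; points are replicates 1 to 3 and bars show mean ± SD. By the sum, eRBC at 1.15% to 1.94% lie lowest; by reads, eRBC at 3.31% to 5.37% overlap HD3 at 4.37% to 6.12%.

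The closest counterpart was formed by the 206 genes that met the same embryonic and fibroblast conditions but were listed in adult red blood cells. Members had lower levels than these genes in the 3 cell types, with a median mean of 1.38 against 2.72 in embryonic cells, 13.9 against 37.7 in HD3 and 42.8 against 146 in fibroblasts. In the counterpart, 66 of 206 genes (32.0%) had an embryonic mean under 1.70, beside 66.4% of the members. The rule separates these lists by their adult listing. All 206 were listed in HD3. Between embryonic cells and HD3, 187 of the 205 tested were lower (91.2%), beside 83.2% of the members, and the median log2 fold changes were -2.42 for members and -3.17 for the counterpart. Centred on the median gene, 31 counterparts were higher (15.1%) and 72 lower (35.1%), beside 35 (28%) and 36 (28.8%) of the members. On recovered reads 62 counterparts were higher (30.2%) and 52 lower (25.4%), beside 55 (44%) and 29 (23.2%) of the members. These are descriptions of lists chosen with results known, and the difference between them was not tested.

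Recovered lengths, which the rule did not use, had a median of 1933.5 bp over the members, beside 1312.5 bp over the 206 counterparts and 2193 bp over all 13889 genes. The middle of the distribution ran from 1194 to 2891 bp by quartiles, and the extremes were 112 and 6325 bp. Lengths under 300 bp were found for 8 members (6.25%), 34 counterparts (16.5%) and 6.46% of all genes. A length that shares a divisor with its read numbers comes out too short, so single lengths are lower estimates. Of the 8 short members, 2 were among the 6 highest by embryonic mean, at 10.5 and 10.2 in embryonic replicate 1 but between 4.26 and 5.07 in replicates 2 and 3.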

How the data were processed

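Total RNA of 12 samples was extracted with TRIzol and made into stranded libraries after removal of ribosomal RNA, per the labels' protocols. STAR 2.7.2b, featureCounts and the build GRCg6a are named in the submitters' processing notes; their settings and the annotation release are not given in the sources used here. The authors deposited 1 table per cell type of FPKM values, scaled to cell number per the table names, with a column per replicate. Columns were matched through the sample descriptions, and 0 were left unmatched. The members and lists were chosen with earlier results of these data known.

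Whole reads and lengths were recovered for all 13889 genes because a gene's FPKM, multiplied by its length, must be a whole read number once a factor common to the library is taken out. Reads counted as whole within 0.001 plus a relative 2e-09, with lengths searched up to 60000 bp. Upper limits of unscaled levels assume that a library holds no fewer reads than its listed genes. The recovery and the limma step were tested on simulated data.

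Genes listed in both tables of a pair with a mean of at least 1 over its 6 samples were tested with limma 3.58.1 (R 4.3.3, mean-variance trend, pseudocount 1, only those samples), two-sided. P-values were Benjamini-Hochberg adjusted over all genes tested, and calls needed an adjusted p under 0.05 together with a log2 fold change of 1 or more in size. Such fold changes understate the change of low genes. In each comparison at most 2 called members with the largest rises and 2 with the largest falls, without overlap of replicates, were named, because the IDs carry no names; pathway lists by symbol could not be applied. The files hold values and no counts, so the count-based tests were not the main ones. Alternatives were a pseudocount of 0.1, no filter, equal sums, median centring, 1 fit of 9 samples, a replicate block, leaving out each library, and voom on recovered reads.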

Additional observations from a re-analysis of the deposited data

How the results depend on the processing

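Rescaling the samples reversed the median change in all but the equal-sum scaling of embryonic cells against HD3. Median centring shifts every log2 fold change of a comparison by the same amount, so its reversal follows from the scaling itself. Why the cell types differ in scale was not tested. Between embryonic red blood cells and HD3, equal sums gave 66 called members (15 higher, 51 lower) and a log2 fold change of -0.66 at the median. Centring on the median gene gave 35 higher, 36 lower and a median of 0.31, and voom on recovered reads 55 higher, 29 lower and a median of 0.77. Between HD3 and fibroblasts, equal sums gave 46 called members (34 higher, 12 lower) and a median of 0.50, centring 40 (27 higher, 13 lower) and 0.54, and voom 62 higher, 6 lower and 1.03. A pseudocount of 0.1 gave medians of -3.09 and -1.46 in the 2 comparisons. Leaving out single libraries left 100 to 106 and 75 to 84 called members, with medians of -2.53 to -2.27 and of -1.46 to -1.20. The number of members was 30 with an embryonic minimum of 2, 73 with every embryonic replicate at least 1, and 113 to 132 with a library left out. The members' share was 4.56% by reads and 12.9% without the 10 highest genes in embryonic cells, 8.32% without those genes in HD3 and 4.19% in fibroblasts, so that embryonic cells were then highest. Same-numbered replicates did not deviate together (r of -0.11, 0.06 and -0.24 between embryonic cells and HD3, and of -0.10, -0.14 and 0.11 between HD3 and fibroblasts), and not every sample correlated best with its own number. With a replicate block, 103 and 81 members were called, beside 104 and 81 without it. Depth limits single low values most in HD3 and fibroblasts, where a member had as few as 6 and 8 reads in a library.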
